A study of Mus musculus with 4 samples.

Results

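The genes described here are 10 factors of the core pluripotency network and of the formative state that follows it: Pou5f1, Sox2, Nanog, Sall4, Lin28a, Lin28b, Zfp281, Otx2, Pou3f1 and Fgf5. They were chosen by gene symbol from the 37620 gene identifiers of a raw RNA-seq count table, and each was found. The table holds 4 libraries of mouse embryonic stem cells (mESCs), 2 of WT_CTCF and 2 of MUT_CTCF. Both lines were made from CTCF-EGFP-AID mESCs, in which endogenous CTCF, a chromatin loop protein, carries a tag that lets auxin degrade it, and both received a vector that expresses CTCF again. WT_CTCF carries the wild-type protein and MUT_CTCF a protein mutated at T668, a site of O-GlcNAcylation (the attachment of a single sugar to a serine or threonine). Cells grew on gelatin in serum with leukaemia inhibitory factor (LIF). Each line was chosen as a clone with CTCF near the endogenous level, and its libraries were biological replicates of that line, so the mutation and the line cannot be told apart. Endogenous CTCF was degraded by 2 days of auxin, and the time for the RNA libraries is not given separately in the sources used here.

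OCT4 (encoded by Pou5f1) and SOX2 bind DNA side by side at composite motifs and, with NANOG, activate one another and many other genes of the undifferentiated state. Sall4 encodes a zinc finger protein of the same network, and LIN28 proteins keep let-7 microRNAs from maturing. When mESCs leave the naive state, OTX2, ZFP281 and OCT6 (encoded by Pou3f1) help to install the formative programme, of which Fgf5 is the usual marker.

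The DNA ahead of Nanog and Sox2 held letters that match known OCT4 and SOX2 motifs, and is shown for that reason. The sequences below are the 250 bases upstream of an annotated start in RefSeq (GRCm38.p6, plus strand, 5′ to 3′), a later build than the one used for counting. They are chr6:122707315-122707564 for Nanog and chr3:34649745-34649994 for Sox2. Capitals mark, in Nanog, the SOX motif CATTGT, 1 base and ATGCAAA, read here on the reverse strand, and in Sox2 ATGCAAA alone. ATGCAAA is 1 base short of a full octamer motif and is called the octamer core here.
Nanog: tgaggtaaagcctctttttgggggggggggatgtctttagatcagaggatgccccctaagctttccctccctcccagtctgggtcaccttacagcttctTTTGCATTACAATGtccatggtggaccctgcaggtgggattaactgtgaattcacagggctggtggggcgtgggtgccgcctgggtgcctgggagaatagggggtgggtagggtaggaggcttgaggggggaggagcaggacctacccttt
Sox2: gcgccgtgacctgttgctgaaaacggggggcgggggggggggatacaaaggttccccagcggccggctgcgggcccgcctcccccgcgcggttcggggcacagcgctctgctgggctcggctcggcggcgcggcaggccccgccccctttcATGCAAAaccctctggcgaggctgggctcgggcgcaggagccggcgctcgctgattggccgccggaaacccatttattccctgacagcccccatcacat
Both strands of 32851 upstream windows of this length were searched. The octamer core alone was in 1355 of them (4.12%), and the SOX motif alone in 10.7%. The 2 joined with 1 base between them, an arrangement that overlaps each single motif, were in 2 windows (0.00609%), and both were overlapping windows of Nanog. Counted from the start site, the joined motif began at -151 in the Nanog window shown, and the octamer core of Sox2 at -99. Windows were found for 8 of the 10 genes, 13 windows in all. Those of the other 6 genes, Pou5f1 among them, held neither the octamer core nor the joined motif. The SOX motif alone was in the Lin28a window and in 1 Pou5f1 window. A match in these letters is a description of sequence and not a measured binding site.

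The 4 libraries held 40524694 to 40977464 counted reads, and 16264 genes had enough counts to be tested. In edgeR's quasi-likelihood test with Benjamini-Hochberg adjustment, 253 genes were higher in MUT_CTCF at an adjusted p under 0.05 (1.56%) and 262 were lower (1.61%). Scaling by library size alone gave 260 and 152, and keeping genes of low count gave 26 and 3. Leaving out either MUT_CTCF library ended the calls of all genes. A call lost without a MUT_CTCF library or with genes of low count kept is thus shared by all or most called genes. Such a loss does not set a gene apart below. Ctcf itself had 18273 and 18625 counts in WT_CTCF and 18954 and 19233 in MUT_CTCF (log2 fold change 0.04, standard error 0.0284, adjusted p = 0.499). Gene counts do not separate the vector's CTCF from the degradable one and do not show a point mutation, so this checks only that Ctcf RNA was similar. With 2 libraries against 2, an exact permutation test of a single value cannot go below p = 0.333, so all calls rest on the spread that the fit shares across genes. The replicates are described only as biological replicates of a line, so p-values measure the spread between these libraries.

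RNA of the core factors differed between the lines by a few percent, and the wider differences were in the genes with few reads. Of the 10 genes, 8 had enough counts to be tested. Sox2 rose by 6.82%, which was 1 higher call against a background of 1.56% of all tested genes, and 0 of the 8 were called lower against a background of 1.61%. At an unadjusted p under 0.05, 2 were higher (Sox2 and Otx2) and 1 was lower (Pou5f1), where 7.61% of all tested genes were higher and 7.65% lower. DESeq2 also called 1 gene higher and 0 lower, and edgeR's exact test called 0. The log2 fold changes ran from -0.21 for Lin28b to 0.55 for Otx2, with a median of 0.01 and 4 of 8 above 0, where the median of all tested genes was 0.00. The other 2 genes, Pou3f1 and Fgf5, had too few counts to be tested. In these bulk libraries, fewer cells expressing a gene and less of its RNA per cell cannot be told apart.

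Levels between genes were compared as FPKM (counts per kilobase of exon, scaled to library size after edgeR's TMM adjustment), which removes the effect of gene length. Nanog had the highest level, 634.7 ± 2.41 FPKM in WT_CTCF (SD, n = 2) and 652.6 ± 6.54 in MUT_CTCF. Pou5f1 followed with 356.0 ± 6.32 and 338.9 ± 6.02, and Sox2 with 208.3 ± 1.64 and 222.5 ± 2.49. The next steps down were Sall4 with 70.2 ± 0.916 FPKM in WT_CTCF, Lin28a with 24.8 ± 0.700 and Zfp281 with 5.49 ± 0.467. Each of these steps was wider than the spread between replicates. The lowest pair had no order in WT_CTCF, where Lin28b (0.707 ± 0.0809 FPKM) and Otx2 (0.698 ± 0.0975) did not differ beyond their spread. In MUT_CTCF, Otx2 was at 1.02 ± 0.117 FPKM and Lin28b at 0.610 ± 0.0896, although neither gene's own difference between the lines passed. Dividing by the longest transcript in place of all exon bases raised Pou5f1 to 596 in WT_CTCF and left its place below Nanog (644). Only uniquely mapped reads were counted, and 28.6% of the Pou5f1 transcript recurs elsewhere in the genome at 100% identity, as described below. For Nanog, 59.8% recurs at 97.4% identity. Neither length corrects for this, so the order of these 2 genes holds for counted reads only.

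**Figure D1:**
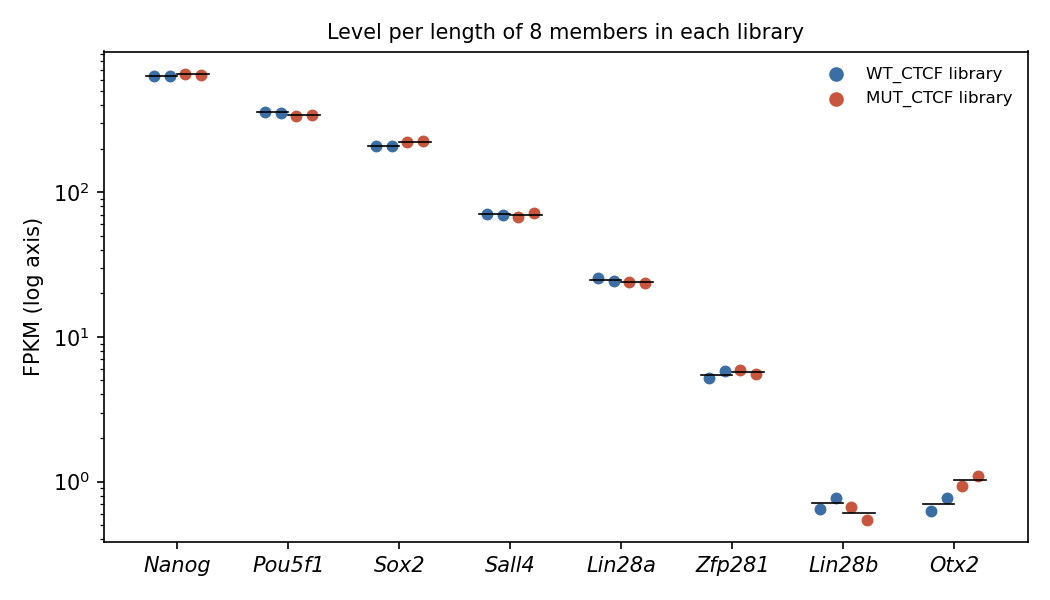
Level per length of 8 of the 10 genes in each library. The vertical axis is FPKM on a log scale, each point is 1 library and each line a mean of 2 libraries. The order from Nanog (634.7 in WT_CTCF) to Zfp281 (5.49) is the same in both lines, and Lin28b and Otx2 lie lowest, close together in WT_CTCF.

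Of the 3 core factors, Sox2 passed the test, and Pou5f1 and Nanog did not. Pou5f1 (ENSMUSG00000024406, mm9 chr17:35642982-35647721) had 33118 and 32273 counts in WT_CTCF and 31065 and 31430 in MUT_CTCF. Both MUT_CTCF libraries lay below both WT_CTCF libraries. After scaling, the means were 32760 ± 581 and 31189 ± 554 normalized counts (SD, n = 2). The change was -4.80% with a 95% interval of -8.06% to -1.42% (log2 fold change -0.07, standard error 0.0251). This did not pass over all genes (adjusted p = 0.119, edgeR's quasi-likelihood test).

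Sox2 (ENSMUSG00000074637, mm9 chr3:34548927-34551383), the single-exon gene of OCT4's DNA-binding partner, had 20959 and 20711 counts in WT_CTCF and 22315 and 22368 in MUT_CTCF. Both MUT_CTCF libraries were above both WT_CTCF libraries, and each pair of replicates was close. The means were 20876 ± 165 and 22299 ± 249 normalized counts (SD, n = 2), and the rise had a 95% interval of 2.85% to 10.9%. It passed in edgeR's quasi-likelihood test (adjusted p = 0.0358) with a log2 fold change of 0.10 and a standard error of 0.0272. The size of the rise was stable, with log2 fold changes of 0.08 to 0.11 over 11 alternatives, but the call was not: the adjusted p was 0.269 when genes of low count were kept, 0.103 in edgeR's exact test and 0.205 to 0.477 when any 1 of the 4 libraries was left out. Sox2 lies inside the long non-coding gene Sox2ot, which had 38 and 51 counts in WT_CTCF and 51 and 55 in MUT_CTCF (log2 fold change 0.25, adjusted p = 0.845), and no exon base of Sox2 was shared with another gene.

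Nanog (ENSMUSG00000012396, mm9 chr6:122657507-122664651), a homeobox factor that steadies the undifferentiated state, had 57794 and 58061 counts in WT_CTCF and 60629 and 58977 in MUT_CTCF. Both MUT_CTCF libraries were again the higher ones, the first by more than the second. The means of 58042 ± 220 and 59683 ± 598 normalized counts (SD, n = 2) gave a change of 2.83% that did not pass (log2 fold change 0.04, standard error 0.0216, adjusted p = 0.38, edgeR's quasi-likelihood test). Among all tested genes, both MUT_CTCF libraries were above both WT_CTCF libraries for 22.3% and below for 22.3%. A pair of non-overlapping groups is therefore common in this table. Of the 8 genes tested here, 3 had MUT_CTCF above (Sox2, Nanog and Otx2), 2 had it below (Pou5f1 and Lin28a) and 3 overlapped.

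**Figure D2:**
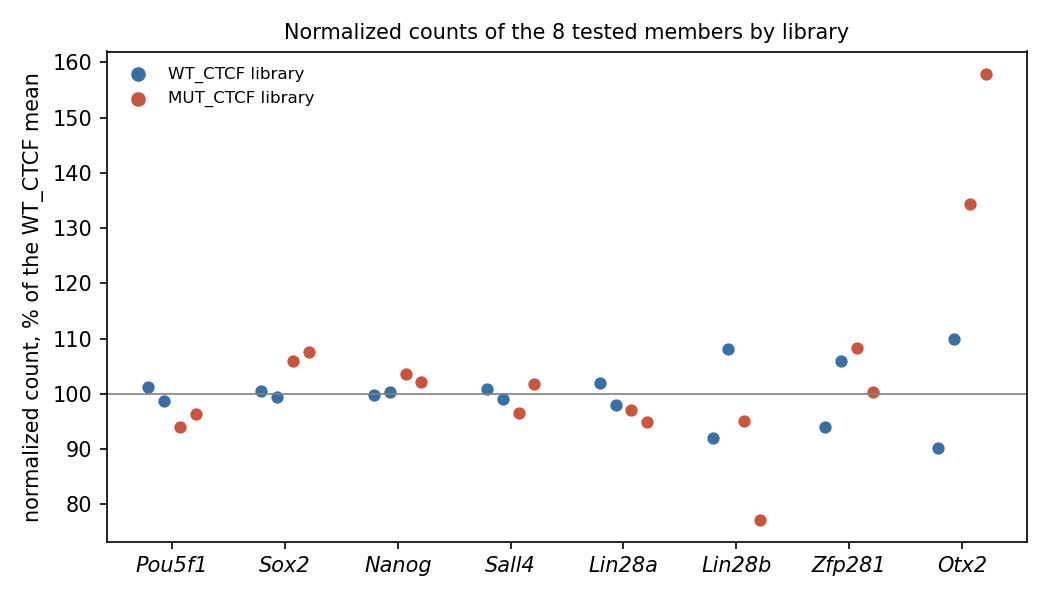
Normalized counts of the 8 tested genes in each library, as a percent of the mean of the 2 WT_CTCF libraries, which is the grey line at 100. The core factors sit within a few percent of the line, and the points of Otx2, Lin28b and Zfp281, with the fewest reads, spread widest.

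A ratio of 2 genes inside 1 library does not depend on how libraries are scaled. These ratios of counts were chosen after the values above were seen, so that genes on opposite sides of no change had to give separate groups, and they carry no test. The ratio of Sox2 to Pou5f1 counts was 0.633 and 0.642 in WT_CTCF and 0.718 and 0.712 in MUT_CTCF, a mean difference of 12.2%. The ratio of Nanog to Pou5f1 was 1.75 and 1.80 in WT_CTCF and 1.95 and 1.88 in MUT_CTCF, 8.01% higher. Against Sox2 the order turned: the ratio of Nanog to Sox2 was 2.76 and 2.80 in WT_CTCF and 2.72 and 2.64 in MUT_CTCF, a change of -3.73%. Of these ratios, that of Sox2 to Pou5f1 differed most in percent.

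**Figure D3:**
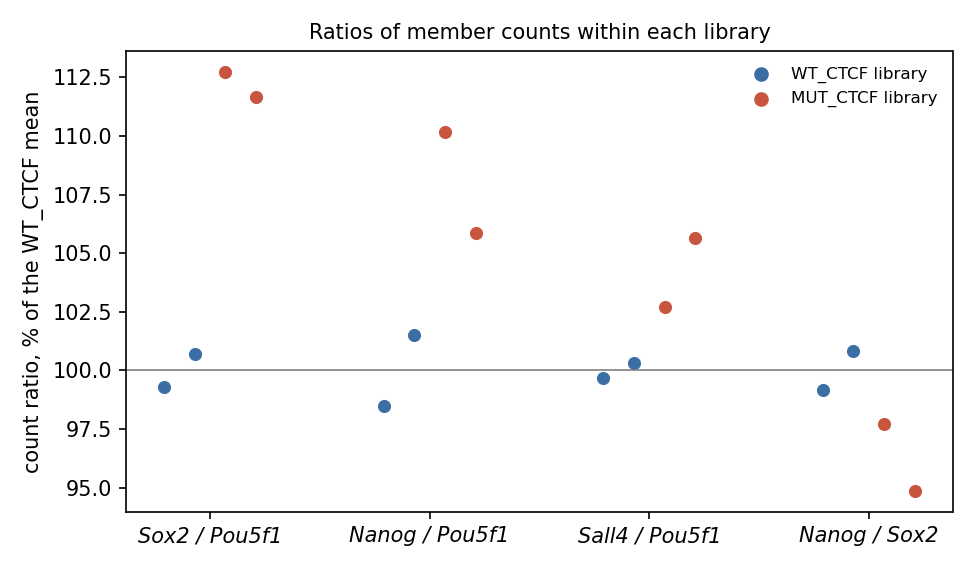
Ratios of counts within each library, as a percent of the mean ratio of the 2 WT_CTCF libraries (grey line at 100). Both MUT_CTCF libraries lie above both WT_CTCF libraries for Sox2 over Pou5f1 (12.2% higher in the mean), Nanog over Pou5f1 and Sall4 over Pou5f1, and below them for Nanog over Sox2.

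Part of the reads of Pou5f1 and Nanog could also align elsewhere. A stretch of 385 bases of Pou5f1, 28.6% of its transcript, recurred at 100% identity at mm9 chr1:161223936-161224320. For Nanog, 59.8% of the transcript recurred at 97.4% identity on the X chromosome (mm9 chrX:87127651-87128972), and for Lin28a 16.3% recurred at 98.1% on chromosome 7. No annotated gene lay at these places. Only uniquely mapped reads were counted, and the share of reads left uncounted for this reason was not measured. The other members had no such copy of at least 300 bases.

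Sall4 (mm9 chr2:168573832-168593443), a zinc finger factor that supports Pou5f1 expression, had 15963 and 15659 counts in WT_CTCF and 15428 and 16057 in MUT_CTCF. The MUT_CTCF libraries lay on either side of the WT_CTCF libraries. Its log2 fold change was -0.01 with a 95% interval of -0.07 to 0.05 (standard error 0.0303, adjusted p = 0.913, edgeR's quasi-likelihood test). The sign of this value turned when libraries were scaled by their size alone (0.00062). Sall4 shares 9.5% of its exon bases with the antisense gene Gm14261, which had 2 to 14 counts.

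The 2 LIN28 genes encode RNA-binding proteins that block let-7 maturation and differ widely in level in these cells. Lin28a (mm9 chr4:133559245-133574756) had 3617 and 3473 counts in WT_CTCF and 3479 and 3358 in MUT_CTCF. The raw counts overlapped by a few reads, after scaling both MUT_CTCF libraries were just below both WT_CTCF libraries, and the log2 fold change of -0.06 did not pass (standard error 0.0495, adjusted p = 0.651, edgeR's quasi-likelihood test). Lin28b (mm9 chr10:45096426-45206201) had 240 and 282 counts in WT_CTCF and 251 and 201 in MUT_CTCF. These groups overlapped, and the log2 fold change of -0.21 had a 95% interval of -0.55 to 0.12 (standard error 0.166, adjusted p = 0.607, edgeR's quasi-likelihood test). Per exon length, Lin28a RNA was 35.4 times as abundant as Lin28b RNA in WT_CTCF and 39.5 times in MUT_CTCF, and per length of the longest transcript 21.1 and 23.5 times. The ratio of counts in single libraries ran from 12.3 to 15.1 in WT_CTCF and from 13.9 to 16.7 in MUT_CTCF, with overlap.

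Zfp281 (mm9 chr1:138521478-138526630), a zinc finger factor that acts at the step from naive to primed cells, had 1037 and 1169 counts in WT_CTCF and 1207 and 1104 in MUT_CTCF. The groups overlapped, and the log2 fold change of 0.06 had a 95% interval of -0.10 to 0.23 (standard error 0.0821, adjusted p = 0.809, edgeR's quasi-likelihood test). Without WT_CTCF replicate 1 the value was -0.02.

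Otx2 (mm9 chr14:49277354-49287319) encodes a homeobox factor that redirects OCT4 to formative enhancers. It had 87 and 106 counts in WT_CTCF and 131 and 152 in MUT_CTCF, so both MUT_CTCF libraries were above both WT_CTCF libraries. The means were 96.7 ± 13.5 and 141.3 ± 16.2 normalized counts (SD, n = 2). The log2 fold change was 0.55 with a standard error of 0.242, the largest among the 8 tested genes. It did not pass over all genes (adjusted p = 0.26, edgeR's quasi-likelihood test). The 95% interval was wide, from 4.35% to 104.4% higher, and leaving out 1 library moved the log2 fold change between 0.41 and 0.69.

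**Figure D4:**
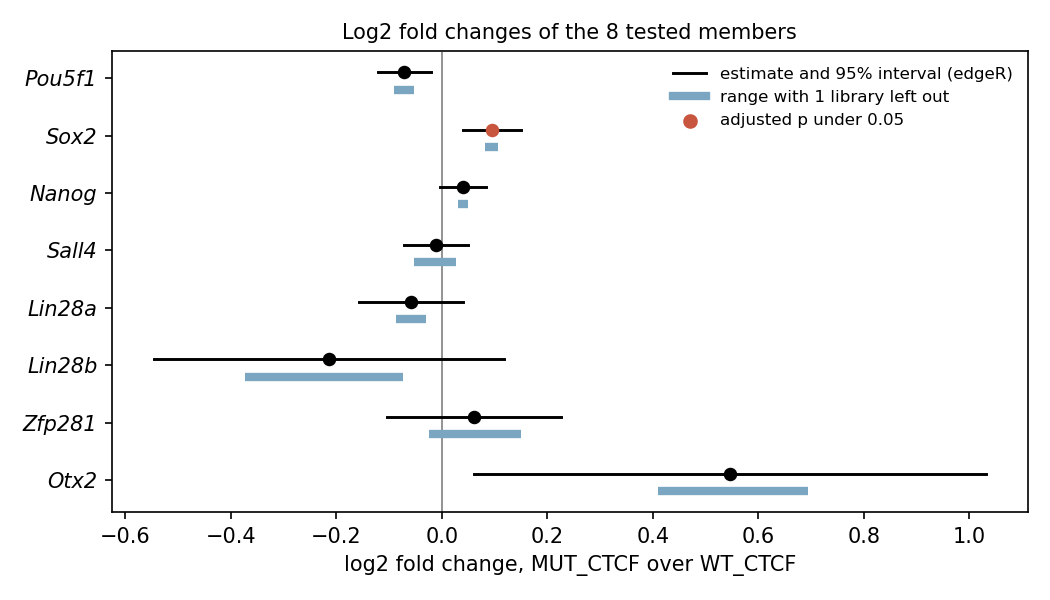
Log2 fold changes of MUT_CTCF over WT_CTCF for the 8 tested genes, with 95% intervals from edgeR (black) and the range of the estimate when 1 of the 4 libraries was left out (blue). Sox2 (0.10) is the gene with an adjusted p under 0.05, the interval of Otx2 (0.06 to 1.03) is the widest, and the blue ranges of Sall4 and Zfp281 cross 0.

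Fgf5 (mm9 chr5:98683203-98706049), a growth factor switched on in formative cells, had 0 counts in all 4 libraries. A count of 0 allows up to 3 counts, or 0.0740 CPM in the shallowest library, so a difference was not detectable at this depth.

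Pou3f1 (ENSMUSG00000078236, mm9 chr4:124334896-124337899), the POU factor OCT6 of formative cells, had 0 and 6 counts in WT_CTCF and 1 and 6 in MUT_CTCF. These counts do not give its level. In the GENCODE M1 annotation of mm9, 3003 of its 3004 exon bases were shared with another entry of the same name and strand (ENSMUSG00000090125, a pseudogene), which had 0 counts in all 4 libraries. Reads on shared bases are ambiguous for a counter that gives each read to 1 gene. Of 146 protein-coding genes with at least 99% of their exon bases on another gene, 141 (96.6%) had 0 counts in every library, against 18.1% of all other protein-coding genes. The annotation and strand setting behind the deposited counts are not given in the sources used here.

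Of the naive programme around these genes, no gene passed in the fit without a replicate block. All 12 naive factors on the list, such as Klf2, Esrrb and Zfp42, were tested, with a median log2 fold change of -0.03. In edgeR's quasi-likelihood test 0 of them passed at an adjusted p under 0.05 in either direction (background 1.56% higher and 1.61% lower). At an unadjusted p under 0.05, 1 was higher and 2 were lower, where 7.61% of all tested genes were higher and 7.65% lower. DESeq2 and edgeR's exact test also called 0, and the fit with the replicate block called 1 higher, Klf4 (log2 fold change 0.10, adjusted p = 0.0412). Their summed level per length was 1508 and 1538 FPKM in WT_CTCF and 1471 and 1519 in MUT_CTCF, with overlap.

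Of 22 formative and primed genes, all tested, 2 were lower and 0 higher at an adjusted p under 0.05, where 1.61% of all tested genes were lower and 1.56% higher. Their median log2 fold change was 0.00. Utf1, a chromatin factor of pluripotent cells, had 3952 and 3956 counts in WT_CTCF and 3346 and 3496 in MUT_CTCF (log2 fold change -0.21, adjusted p = 0.00499, edgeR's quasi-likelihood test). Nodal, the ligand that keeps SMAD signalling active in primed cells, had 5977 and 6048 counts in WT_CTCF and 5151 and 5558 in MUT_CTCF (log2 fold change -0.17, adjusted p = 0.0109). Both genes were lower in each MUT_CTCF library than in each WT_CTCF library. At an unadjusted p under 0.05, 4 genes of this list were higher and 3 were lower (7.61% and 7.65% of all tested genes). DESeq2 and edgeR's exact test called 0 higher and 2 lower. Both calls ended when genes of low count were kept (adjusted p = 0.192 for Utf1 and 0.295 for Nodal) and when any 1 library was left out, with log2 fold changes of -0.26 to -0.17 for Utf1 and, for Nodal, -0.24 without MUT_CTCF replicate 2 to -0.11 without MUT_CTCF replicate 1.

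Upstream of Fgf5 and of the exit from pluripotency stands the FGF4 and ERK pathway, a kinase cascade that drives mESCs out of the naive state. All 19 genes of its list were tested, of which 2 were lower and 1 higher (background 1.61% and 1.56%). The median log2 fold change was 0.01. At an unadjusted p under 0.05, 2 genes of this list were higher and 3 lower, where 7.61% of all tested genes were higher and 7.65% lower. DESeq2 and edgeR's exact test each called 1 higher and 2 lower. The ligand gene Fgf4, a known target of OCT4 and SOX2, had 16835 ± 67.5 normalized counts in WT_CTCF and 17001 ± 104 in MUT_CTCF (SD, n = 2), with an adjusted p of 0.886 in edgeR's quasi-likelihood test. Egr1, an immediate early target of ERK, had 2293 and 2299 counts in WT_CTCF and 2986 and 2973 in MUT_CTCF (log2 fold change 0.37, adjusted p = 5.92e-06). The lower genes were Spry2, a feedback inhibitor of receptor signalling (log2 fold change -0.24, adjusted p = 0.013), and Map2k2, a kinase that activates ERK (log2 fold change -0.18, adjusted p = 0.00518). Members of 1 pathway thus moved in both directions, and of these 3 only the call of Egr1 held when genes of low count were kept. All 3 calls ended without either MUT_CTCF library, that of Map2k2 also without WT_CTCF replicate 1 and that of Spry2 without WT_CTCF replicate 2. For Map2k2 the log2 fold change shrank to -0.10 without MUT_CTCF replicate 1, and leaving out MUT_CTCF replicate 2 gave -0.27.

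The Lin28 and let-7 list had 18 genes, all tested, with 1 higher and 1 lower (background 1.56% and 1.61%) and a median log2 fold change of 0.05. At an unadjusted p under 0.05, 4 genes of this list were higher and 2 lower, where 7.61% of all tested genes were higher and 7.65% lower. DESeq2 and edgeR's exact test each called 1 higher and 1 lower. Igf2bp2, an RNA-binding protein whose mRNA let-7 targets, had 3020 and 3307 counts in WT_CTCF and 3784 and 3888 in MUT_CTCF (log2 fold change 0.27, adjusted p = 0.000345, edgeR's quasi-likelihood test). Myc, a transcription factor of cell growth, had 779 and 839 counts in WT_CTCF and 657 and 569 in MUT_CTCF (log2 fold change -0.41, adjusted p = 0.0115). These calls ended when genes of low count were kept (adjusted p = 0.186 for Igf2bp2 and 0.249 for Myc) and without either MUT_CTCF library, that of Igf2bp2 also without WT_CTCF replicate 1 (log2 fold change 0.21) and that of Myc without WT_CTCF replicate 2 (-0.35).

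Of 20 genes for protein partners of NANOG and OCT4, including subunits of the NuRD complex, 1 was higher and 0 were lower (background 1.56% and 1.61%), with a median log2 fold change of 0.01. Kdm1a, a histone demethylase, had a log2 fold change of 0.10 (adjusted p = 0.0326, edgeR's quasi-likelihood test), about the size of that of Sox2, and did not pass in DESeq2 (adjusted p = 0.0581) or when any 1 library was left out (log2 fold change 0.06 without MUT_CTCF replicate 2 to 0.14 without MUT_CTCF replicate 1). At an unadjusted p under 0.05, 1 partner was higher and 3 were lower, where 7.61% of all tested genes were higher and 7.65% lower. DESeq2 and edgeR's exact test called 0 in either direction. Of 22 paralogues of the 10 genes, 14 were tested, and 0 were higher and 0 lower (background 1.56% and 1.61%). At an unadjusted p under 0.05, 1 paralogue was higher and 0 were lower (background 7.61% and 7.65%), and DESeq2 and edgeR's exact test called 0.

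**Figure D5:**
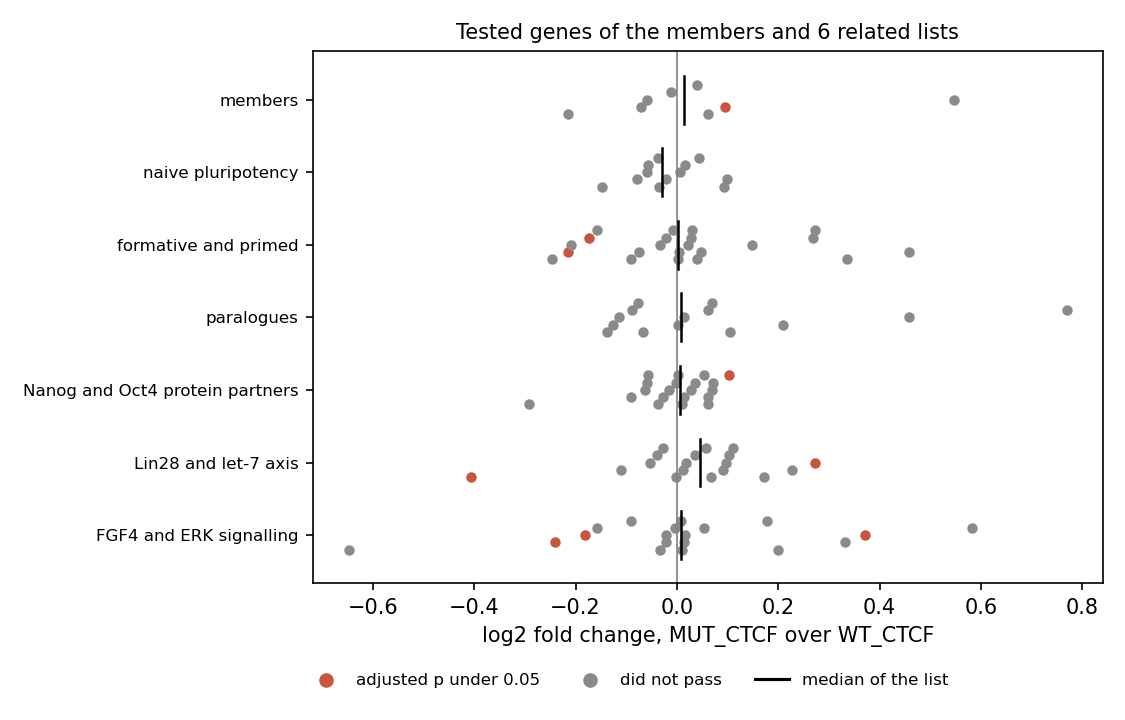
Log2 fold changes of MUT_CTCF over WT_CTCF for the tested genes among the 10 factors (top row) and 6 lists of related genes. Each point is a gene, red marks an adjusted p under 0.05, and the black line is the median. Medians lie between -0.03 and 0.05, and red points lie on both sides of 0.

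Of the markers of other cell types, those of fibroblasts, primitive endoderm and mesoderm were low beside the core factors, whereas the neural marker Tubb3 (180.4 FPKM in WT_CTCF) was near Sox2. Over 10 fibroblast markers, which feeder cells would bring, the summed level ran from 14.6 to 15.8 FPKM in WT_CTCF and from 16.4 to 18.1 in MUT_CTCF, with S100a4 at 0. Over 7 primitive endoderm markers it was 3.03 and 3.18 in WT_CTCF and 3.47 and 4.50 in MUT_CTCF, and over 6 mesoderm markers it ran from 10.5 to 12.3 over all 4 libraries. In these 3 lists 0 genes passed in edgeR's quasi-likelihood test (background 1.56% higher and 1.61% lower), DESeq2 or edgeR's exact test. At an unadjusted p under 0.05, 1 of 6 tested fibroblast markers was lower and 2 of 5 tested primitive endoderm markers were higher. Of 6 tested mesoderm markers it was 0, where 7.61% of all tested genes were higher and 7.65% lower. Of the 5 tested primitive endoderm markers, 4 had a log2 fold change above 0 (median 0.37). Over 7 trophectoderm markers the summed level was 54.3 and 50.7 in WT_CTCF and 49.4 and 49.5 in MUT_CTCF. Of these 7, 2 were called lower (background 1.61%), and 3 had a log2 fold change above 0 (median -0.12). Cdx2, which represses Pou5f1 in that lineage, had 274 and 298 counts in WT_CTCF and 133 and 159 in MUT_CTCF (log2 fold change -0.97, adjusted p = 0.000227, edgeR's quasi-likelihood test), and Krt8 had a log2 fold change of -0.30 (adjusted p = 0.0319). DESeq2 called 0 of this list, with an adjusted p of NA for Cdx2, and edgeR's exact test called 0 higher and 2 lower. Over 6 neural markers the sum was 190.0 and 190.6 in WT_CTCF and 167.4 and 171.1 in MUT_CTCF, nearly all of it Tubb3. Tubb3 was lower (log2 fold change -0.19, adjusted p = 5.01e-05, edgeR's quasi-likelihood test), 1 call among 3 tested neural markers (background 1.61%). Of these 3, 2 had a log2 fold change above 0, and the median was 0.11. The calls of Cdx2 and Tubb3 ended without either MUT_CTCF library and when genes of low count were kept (adjusted p = 0.117 and 0.0701). That of Krt8 was weaker and ended also without either WT_CTCF library, with library size only (adjusted p = 0.0509) and in DESeq2 (adjusted p = 0.0777). The part of these markers in the difference in Sox2, which neural cells also express, was not tested.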

How the data were processed

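RNA-seq of 2 WT_CTCF and 2 MUT_CTCF libraries was analysed. The authors trimmed reads with Trim Galore 0.4.4, used STAR with mm9 as the genome, and deposited raw counts of uniquely mapped reads per gene from HTSeq 0.9.1, without normalization. The authors also deposited their own edgeR comparison (fold changes and p-values), which was not used. GENCODE M1 named 37205 of 37620 gene identifiers and gave places and exon lengths. Genes were kept by filterByExpr (minimum count 10) and tested with edgeR 4.0.16 (R 4.3.3), TMM scaling and glmQLFTest, with Benjamini-Hochberg adjustment over all 16264 tested genes. Normalized counts were scaled to the mean library, and intervals and floors of 3 counts cover the spread or counting error of these libraries only. Alternatives were other scalings, filters and tests (DESeq2 1.42.0), a replicate block and leaving out each library. Copies were sought with blastn 2.17.0 at 95% identity over 300 bases. Named were all 10 genes, Ctcf, genes overlapping them and, per list, up to 4 called genes with the smallest p, and other genes were named as examples after their values were seen. The 10 genes and the lists were chosen with earlier results of these data known. Sox1 and Pou5f2 were not analysed here.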

Additional observations from a re-analysis of the deposited data

How the results depend on the processing

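Of 86 values of the 8 tested genes under alternatives, 76 kept their direction and side of the threshold. The DESeq2 adjusted p of Lin28b and Otx2 was NA and is not counted. Sox2 lost its call without a filter (log2 fold change 0.0938), in edgeR's exact test (0.0951) and without any 1 library (0.0822 to 0.107), so that 0 of the genes were called in these settings, and 0 under the study's own rule of a fold change above 2 at an unadjusted p under 0.05. Sall4 turned sign with library size only (0.00062) and ran from -0.0521 to 0.0264 without 1 library, and Zfp281 from -0.0237 to 0.15. The median of the genes was 0.0266 with library size only and -0.0112 to 0.0159 without 1 library. Over all genes, higher and lower calls numbered 26 and 3 without a filter, 141 and 161 in DESeq2, 154 and 58 under the study's rule, and 0 to 140 and 0 to 102 without 1 library, with 0 in both directions without either MUT_CTCF library. Lower calls numbered 152 with library size only. The leave-one-out fits also had fewer samples, and the cause of these differences was not tested. Replicate numbers did not pair the libraries (correlation of same-numbered deviations -0.02 over 16264 genes), and with the replicate block 326 genes were higher and 372 lower, with Sox2 still called (adjusted p = 0.0153). All 11 called list genes lost their calls without either MUT_CTCF library. Depth limits Otx2 and Lin28b, with 87 to 282 counts.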
